A study of Mus musculus with 10 samples.

Results

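The genes described here are 10 that carry or shape the light signal in ON bipolar cells of the retina: Trpm1, Nyx, Gpr179, Lrit3, Rgs7, Rgs11, Gnao1, Gng13, Prkca and Pcp2. They were taken by gene symbol from a table of raw read counts for 35275 genes, and all 10 were among the 17435 genes with enough reads to be tested. Retinas of C57BL/6 mice aged 10 to 12 weeks gave 5 vehicle libraries and 5 vigabatrin libraries, the latter after 11 days of drug delivery from an osmotic pump under the skin (140 mg/kg/day). Vigabatrin is used against epilepsy, acts by blocking GABA transaminase, and can cause loss of visual field in patients. The titles of the vehicle libraries call them untreated, and libraries are named here by group and title number. Whole retinas were sequenced, so fewer ON bipolar cells and less RNA per cell cannot be told apart. The labels do not say whether libraries came from separate animals, and p-values therefore measure the spread between libraries.

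Bipolar cells pass the signal of the photoreceptors to the inner retina. In the dark, rods and cones release glutamate, which binds the metabotropic receptor mGluR6 (Grm6) on the dendrites of ON bipolar cells and keeps the cation channel TRPM1 closed through the G protein Go. Light lowers glutamate release, Go is switched off by a complex of RGS7 or RGS11 with Gβ5 that the orphan receptor GPR179 holds at the dendritic tip, and TRPM1 opens. Loss of TRPM1, nyctalopin, GPR179 or LRIT3 causes congenital stationary night blindness in people, with loss of the ON bipolar response. Protein kinase C alpha (Prkca) is the usual marker of rod bipolar cells.

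Total counts per library ranged from 36056135 to 54052502. Rod markers (7 genes) summed to between 52368 and 58486 CPM (reads of a gene scaled to a common library size, with TMM factors) in every library. The ON bipolar receptor gene Grm6, which is not among the 10, was present in every library at 164 to 232 CPM. The libraries differed in markers of tissue from around the retina. Markers of the pigment epithelium and melanocytes (10 genes, none at 0 in every library) summed to 27.4 to 1671 CPM in vehicle and 12.5 to 747 CPM after vigabatrin, and were over 500 CPM in vehicle 835, vehicle 1582 and vigabatrin 2344. Lens markers took more than 1% of the counts in those 3 libraries and in vigabatrin 2429. Of the vehicle libraries, only vehicle 2345 has a title number in the range of the treated ones, so treatment and title range can be separated only through that library.

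The comparison of vigabatrin with vehicle asks whether the drug was accompanied by a change in these transcripts. None of the 10 passed the test: 0 were higher and 0 lower at an adjusted p under 0.05 (edgeR quasi-likelihood test, adjusted over all genes tested), where 0.00574% of all genes were called in either direction. At an unadjusted edgeR p under 0.05 there were also 0 of 10, against 7.36% of all genes. DESeq2 called 0 of the 10 and 0.499% of all genes, and limma-voom called 0 of the 10 and 0.0172% of all genes. In no member did the 5 libraries of one group lie wholly above or below those of the other, which was the case for 1.48% of all genes. Of the 10, 4 had a higher and 6 a lower mean after vigabatrin, with a median log2 fold change of -0.01 beside -0.001 over all genes tested. The single estimates ran from -0.11 for Rgs11 to 0.09 for Nyx. The 95% intervals of the 10 genes, in this fit without a term for title range, stretched from 0.785-fold for Trpm1 to 1.26-fold for Nyx. With that term the log2 estimates of Nyx (-0.26), Lrit3 (-0.17) and Gpr179 (-0.13) fell below their intervals. The intervals therefore do not bound the changes once title range is taken into account.

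**Figure D1:**
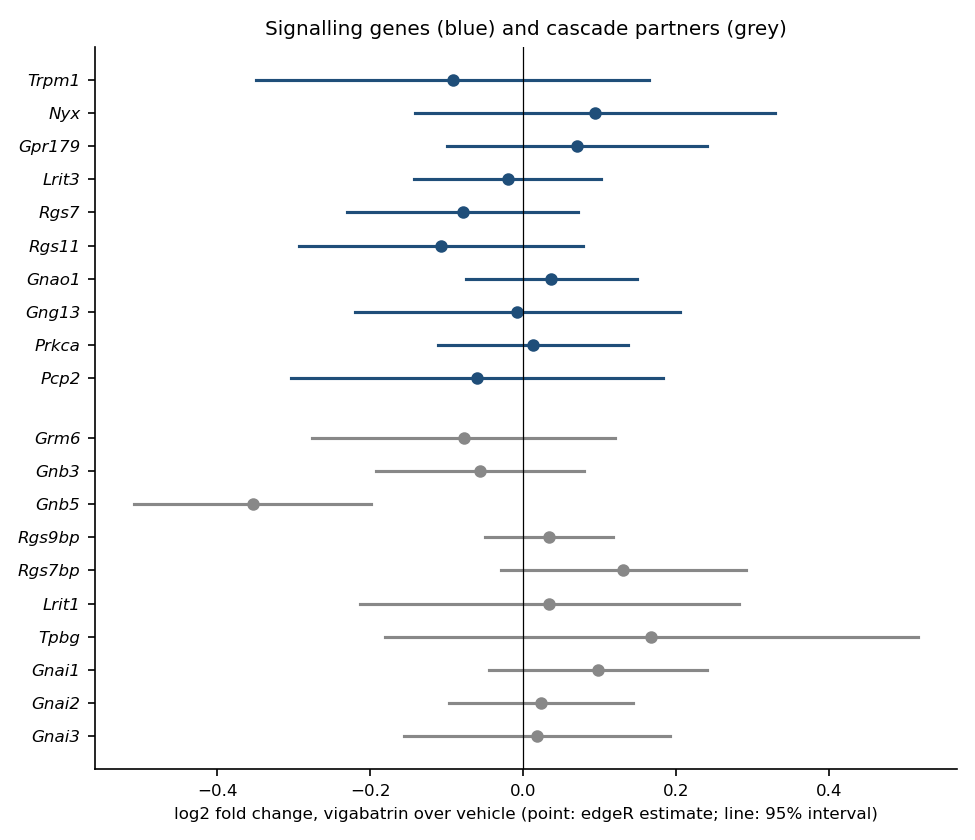
Log2 fold change of vigabatrin over vehicle (horizontal axis) for the 10 signalling genes (blue) and 10 partners of the cascade (grey), with points for the edgeR estimate and lines for its 95% interval, 5 libraries per group. Every blue line crosses 0, and among the partners the interval of Gnb5 lies below 0 although it did not pass the test over all genes.

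Trpm1 (ENSMUSG00000030523, chromosome 7, 64153835 to 64269775, plus strand of mm10) encodes the cation channel at the end of the cascade. It was first described in pigment cells, where it is known as melastatin, and it is made there as well as in ON bipolar cells.

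RefSeq (GRCm38.p6, the build of mm10) lists 2 start sites for Trpm1 on the plus strand, and the 250 bases before each are shown because Trpm1 is made in both bipolar and pigment cells. Capitals mark 3 motifs searched on both strands. TAATCC, which reads GGATTA on the other strand, is the core bound by the bipolar and photoreceptor factors OTX2 and CRX. The E-boxes CATGTG, which reads CACATG on the other strand, and CACGTG, which reads the same on both, are bound by the pigment cell factor MITF. The motifs do not overlap in these windows.
Trpm1 upstream start, chr7:64153585-64153834: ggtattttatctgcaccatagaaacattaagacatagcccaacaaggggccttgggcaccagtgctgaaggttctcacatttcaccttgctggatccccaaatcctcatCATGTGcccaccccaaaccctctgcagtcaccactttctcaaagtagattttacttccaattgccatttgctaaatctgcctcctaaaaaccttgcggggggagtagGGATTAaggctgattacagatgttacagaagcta
Trpm1 downstream start, chr7:64185209-64185458: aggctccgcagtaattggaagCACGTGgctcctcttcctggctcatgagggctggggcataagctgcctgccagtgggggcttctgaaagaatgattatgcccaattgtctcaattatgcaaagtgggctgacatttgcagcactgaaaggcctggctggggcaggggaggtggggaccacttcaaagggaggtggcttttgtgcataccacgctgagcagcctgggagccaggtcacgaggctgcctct
The upstream window, which ends at the start of the gene as deposited, holds CATGTG 141 bases and GGATTA 34 bases before the start, counted from the first base of the match. The downstream window holds CACGTG 229 bases before its start. Of 32851 promoter windows of the same length, 6.25% hold TAATCC, 12.25% CATGTG and 6.02% CACGTG, on either strand. Among the 14 windows of the 9 members with an entry, 1 holds TAATCC, 3 hold CATGTG and 2 hold CACGTG. A match is a stretch of letters and shows no binding, and the gene-level counts do not tell transcripts of the 2 start sites apart.

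Trpm1 measured 310.2, 385, 301, 324 and 451 CPM in vehicle 1580, 1582, 2345, 832 and 835. It measured 401, 320.03, 303, 312 and 326 CPM in vigabatrin 2344, 2347, 2349, 2428 and 2429. The groups overlapped throughout, and the 3 highest values belonged to the 3 libraries with the most pigment marker transcripts. These lay between 385 and 451 CPM, and the other 7 between 301 and 326 CPM. The vehicle libraries averaged 354 ± 63.4 CPM and the vigabatrin libraries 332 ± 39.3 CPM (SD, n = 5), and the log2 fold change was estimated at -0.09 (standard error, SE, 0.12; edgeR adjusted p = 0.908).

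The level of Trpm1 followed the summed pigment markers over the 10 libraries, a list that does not hold Trpm1 itself. Pearson's r of the log2 values was 0.883 (permutation p = 7e-05, adjusted over the 10 genes 0.0007) and Spearman's rho 0.891 (permutation p = 0.00122, adjusted 0.0122). Without the 2 libraries farthest from the median of the log2 pigment sum r was 0.915. These were the libraries with the lowest sums, vigabatrin 2349 and 2428 (12.5 and 14.2 CPM), so the 3 pigment-rich libraries stayed in. Within the 6 libraries of the upper title range r was 0.836. Within the 7 libraries with pigment sums under 500 CPM it was 0.846 (exact permutation p = 0.0363, adjusted over the 10 genes 0.335) and rho was 0.679 (exact permutation p = 0.11, adjusted 0.367), so the relation did not pass among these 7 alone. No other member was positively related at an adjusted p under 0.05. Gpr179 had an r of -0.735 (permutation p = 0.0101, adjusted 0.0507) and Lrit3 one of -0.69 (permutation p = 0.0277, adjusted 0.0925), while the rho of Lrit3, -0.794, passed (permutation p = 0.00909, adjusted 0.0454). The r of Gnao1 was -0.66 (permutation p = 0.0381, adjusted 0.0951). With the pigment level as a term the log2 fold change of Trpm1 was -0.005 with a standard error of 0.06, and without vehicle 835 it was 0.01. Leaving out the 3 pigment-rich libraries, an alternative added after seeing the data, gave 0.01 with a standard error of 0.04. Among 9863 other genes with a mean of at least 10 CPM, the 3 with the profile most like that of Trpm1 over the 10 libraries were Slc24a5 (r = 0.99), Sepp1 (r = 0.988) and Ctnna1 (r = 0.988). Slc24a5 encodes a cation exchanger of melanosomes and ranged from 6.82 to 30.2 CPM, Sepp1 encodes selenoprotein P and ranged from 16.2 to 91.2 CPM, and Ctnna1 encodes alpha-catenin and ranged from 103 to 138 CPM.

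**Figure D2:**
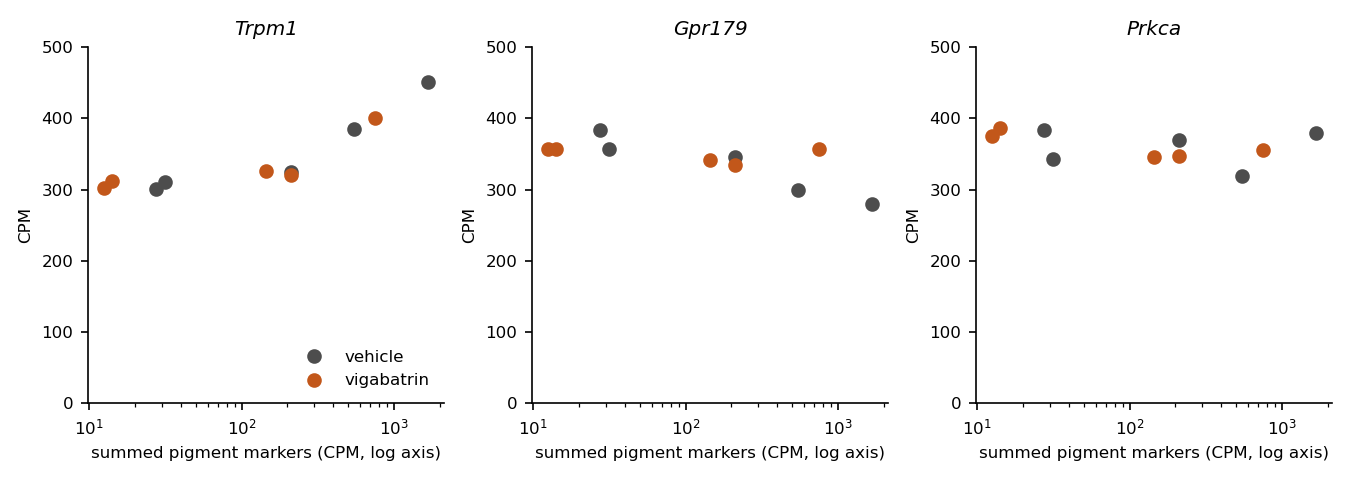
CPM of Trpm1, Gpr179 and Prkca (vertical axes, from 0) against the summed CPM of 10 pigment epithelium and melanocyte markers (horizontal log axis), 1 point per library, grey for vehicle and orange for vigabatrin. Trpm1 lies between 301 and 326 CPM in the 7 libraries with lower pigment sums and between 385 and 451 CPM in the other 3.

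Gpr179, Nyx and Lrit3 build or anchor the postsynaptic complex. Gpr179 (ENSMUSG00000070337, chromosome 11, 97332109 to 97352077, minus strand) encodes the receptor-like anchor of the RGS proteins. It measured 357, 299, 383, 345 and 280.09 CPM in vehicle 1580, 1582, 2345, 832 and 835, and 358, 334, 357, 357 and 341 CPM in vigabatrin 2344, 2347, 2349, 2428 and 2429. All 5 vigabatrin libraries lay inside the range of the vehicle libraries, whose lowest 2 were the pigment-rich vehicle 835 and 1582. The group means were 333 ± 42.4 and 349 ± 10.9 CPM (SD, n = 5), which gave a log2 fold change of 0.07 (SE 0.08, edgeR adjusted p = 0.895). With title range as a term Gpr179 measured -0.13, below the lower end of its 95% interval (-0.0998 on the log2 scale).

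Nyx (ENSMUSG00000051228, X chromosome, 13466110 to 13489313, plus strand) encodes nyctalopin, a leucine-rich repeat protein that places TRPM1 at the dendritic tip. Its values were 23.6, 23.3, 33.1, 28.3 and 20.97 CPM in vehicle 1580, 1582, 2345, 832 and 835, and 29.1, 27.0, 26.7, 28.1 and 27.1 CPM in vigabatrin 2344, 2347, 2349, 2428 and 2429. Vehicle 2345 was the highest of all 10 and vehicle 835 the lowest. Its log2 fold change was 0.09 (SE 0.11, edgeR adjusted p = 0.896). A term for title range, which leaves vehicle 2345 as the one vehicle library compared with the treated ones, moved it to -0.26. That lies below the lower end of its 95% interval (-0.14 on the log2 scale).

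Lrit3 (ENSMUSG00000093865, chromosome 3, 129787881 to 129804030, minus strand) encodes a leucine-rich repeat and immunoglobulin protein of photoreceptors that is needed for nyctalopin and TRPM1 to gather at the ON bipolar dendrite. It ranged from 81.8 to 100.2 CPM in vehicle and from 83.5 to 93.2 CPM after vigabatrin, with medians of 89.3 and 91.3 CPM. Vigabatrin differed from vehicle by -0.02 on the log2 scale (SE 0.06), and the interval from 0.906-fold to 1.07-fold was the narrowest of the 3 complex genes. With title range as a term Lrit3 measured -0.17, below the lower end of that interval (-0.14 on the log2 scale).

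The G protein was represented by its alpha subunit and a gamma subunit. Gnao1 (ENSMUSG00000031748, chromosome 8, 93809966 to 93969388, plus strand) encodes the alpha subunit of Go, which many other neurons also make, and it had the highest CPM of the 10. It ranged from 448 to 523 CPM in vehicle and from 478 to 539 CPM after vigabatrin, with the lowest value in vehicle 835. Its log2 fold change was 0.04 (SE 0.05, the smallest SE of the members), and the interval ran from 0.949-fold to 1.11-fold. Gng13 (ENSMUSG00000025739, chromosome 17, 25717171 to 25719406, plus strand), the gamma subunit that pairs with Gβ3 in ON bipolar cells, was the scarcest member, with 152 to 257 counts per library. It averaged 4.62 ± 0.548 CPM over the vehicle libraries and 4.6 ± 0.227 CPM over the vigabatrin libraries (SD, n = 5). The log2 fold change was -0.01 (SE 0.10, edgeR adjusted p = 0.994). In GENCODE M21, 51.6% of the exon bases of Gng13 also belong to Chtf18 on the opposite strand, and the strand setting of the counting is not given in the sources used here. Whether reads from the shared bases were counted for Gng13, for Chtf18 or for neither is therefore not known. Chtf18 stood at 44.4 ± 4.84 CPM in vehicle libraries and 50.7 ± 2.38 CPM in vigabatrin libraries (SD, n = 5).

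Rgs7 and Rgs11 encode the GTPase-accelerating proteins that switch Go off and can stand in for each other in the mouse. Rgs11 (ENSMUSG00000024186, chromosome 17, 26202951 to 26211324, plus strand) measured 105.4, 93.9, 80.7, 95.9 and 74.8 CPM in vehicle 1580, 1582, 2345, 832 and 835. It measured 76.7, 86.3, 87.1, 81.4 and 86.7 CPM in vigabatrin 2344, 2347, 2349, 2428 and 2429. Both the highest and the lowest value were from vehicle libraries, so the groups overlapped. Its log2 fold change of -0.11 (SE 0.08, edgeR adjusted p = 0.825) had the smallest p of the members, 0.228 unadjusted. By limma-voom Rgs11 measured -0.16 (unadjusted p = 0.0358, adjusted p = 0.4). Without the lens-rich libraries it measured -0.15 (edgeR unadjusted p = 0.123, adjusted p = 0.727). Rgs7 (ENSMUSG00000026527, chromosome 1, 175059736 to 175491130, minus strand) ranged from 29.2 to 34.0 CPM in vehicle and from 26.1 to 33.3 CPM after vigabatrin (log2 fold change -0.08, SE 0.07, edgeR adjusted p = 0.851). With title range as a term the estimates of Rgs11 and Rgs7 were 0.05 and 0.01.

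Prkca and Pcp2 act on the cascade from within the cell. Prkca (ENSMUSG00000050965, chromosome 11, 107933387 to 108343928, minus strand), the kinase that marks rod bipolar cells and shapes the time course of their response, measured 343, 319.59, 384, 369.6 and 379 CPM in vehicle 1580, 1582, 2345, 832 and 835. It measured 356, 347, 375, 387 and 346 CPM in vigabatrin 2344, 2347, 2349, 2428 and 2429. The groups overlapped over nearly their whole range, with means of 359 ± 27.1 and 362 ± 18.02 CPM (SD, n = 5). The estimate for Prkca was a log2 fold change of 0.01 (SE 0.06), with an interval from 0.926-fold to 1.1-fold. The 3 genes with the profile most like that of Prkca were Pcdh9 (r = 0.946), a protocadherin, Socs4 (r = 0.915), a suppressor of cytokine signalling, and Zmynd19 (r = 0.91).

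Pcp2 (ENSMUSG00000004630, chromosome 8, 3623371 to 3625545, minus strand) encodes a GoLoco protein that binds the alpha subunits of Go and Gi and is made in bipolar cells and in Purkinje cells of the cerebellum. It measured 62.3, 57.4, 52.6, 56.7 and 40.7 CPM in vehicle 1580, 1582, 2345, 832 and 835, and 52.9, 59.5, 51.4, 51.8 and 43.2 CPM in vigabatrin 2344, 2347, 2349, 2428 and 2429. The 2 lowest values, in vehicle 835 and vigabatrin 2429, came from both groups and from lens-rich libraries. Pcp2 was not low in the other lens-rich libraries, at 57.4 CPM in vehicle 1582 and 52.9 CPM in vigabatrin 2344. Over all 10 libraries its Pearson's r with the log2 sum of lens markers was -0.637. Among the members this r ran from -0.686 for Gnao1 to 0.653 for Trpm1, and it was not tested. Its log2 fold change was -0.06 (SE 0.11, edgeR adjusted p = 0.938). Of the exon bases of Pcp2, 51.5% are shared with Pet100 on the opposite strand, which stood at 6.6 ± 0.685 CPM in vehicle libraries and 6.19 ± 0.553 CPM in vigabatrin libraries (SD, n = 5).

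**Figure D3:**
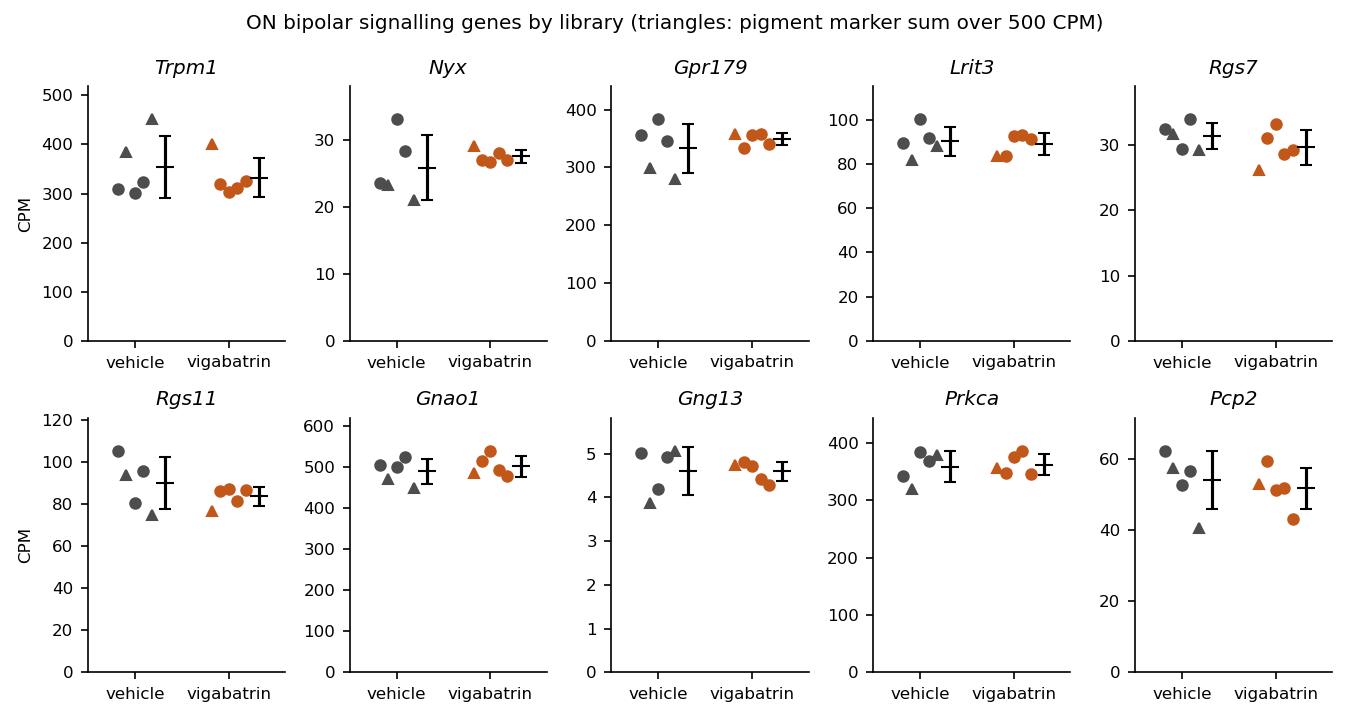
CPM of each of the 10 genes (vertical axes, from 0) in the 5 vehicle (grey) and 5 vigabatrin (orange) libraries, 1 point per library, triangles for the 3 libraries with more than 500 CPM of pigment markers, and bars for the mean and SD of a group. The groups overlap in every panel, and the triangles are the highest points for Trpm1.

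The 10 genes did not move together as 1 block over the libraries. Of the 45 pairs, 20 had a negative Pearson's r of log2 CPM over the 10 libraries, and 0 pairs passed an adjusted permutation p under 0.05 for r or for rho. The highest r was 0.843 for Nyx and Gpr179, followed by 0.759 for Rgs7 and Rgs11 and 0.719 for Lrit3 and Prkca, and the lowest was -0.791 for Trpm1 and Gnao1. Without the 3 pigment-rich libraries these values were 0.547, 0.683, 0.723 and -0.302. Trpm1 was negatively related to 8 of the other 9. Without the pigment-rich libraries Trpm1 was negatively related to 6 of them, with r at 0.02 for Rgs7, 0.24 for Rgs11 and -0.843 for Gpr179, which had been -0.779 over all 10. All values come from the same libraries and scaling, so the pairs are not independent of each other. Vehicle 835, with the most pigment markers, was the lowest vehicle library for 6 of the 10 members and for 6 of 10 cascade partners, and the highest for Trpm1 and Gng13 and for 3 partners, Gnb5, Gnai2 and Gnai3. The same count was not made over all genes tested, so it cannot be read as a trait of these lists. The part of the pigment and lens RNA in these low values was not tested.

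**Figure D4:**
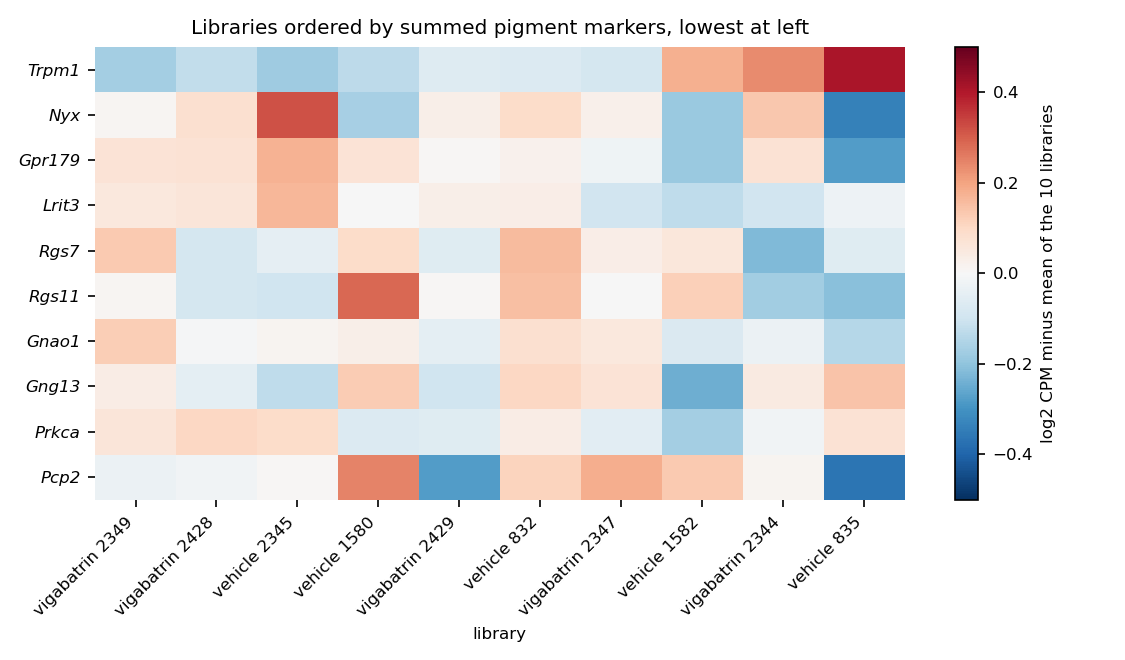
Log2 CPM of each gene minus its mean over the 10 libraries (colour, red above and blue below the mean), with genes in rows and libraries in columns ordered from the lowest to the highest summed pigment markers. Trpm1 turns red in the last 3 columns, where Gpr179 is below its mean in vehicle 1582 and vehicle 835 but not in vigabatrin 2344.

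Levels were compared between genes as CPM per kilobase of the gene length deposited with the counts. In vehicle, Gnao1 was highest at 141 ± 8.58 CPM per kilobase (SD, n = 5), followed by Trpm1 at 62.0 ± 11.1 and Prkca at 42.7 ± 3.22, and these 3 did not overlap each other. Lrit3, Gpr179, Pcp2 and Rgs11 followed between 36.7 and 33.3 CPM per kilobase, and from Prkca to Rgs11 the ranges of neighbours overlapped. Rgs7 stood at 22.1 ± 1.42, and Gng13 and Nyx came last at 6.42 ± 0.763 and 4.99 ± 0.933, which overlapped. The levels and places of Gng13 and Pcp2 carry the limit that their exons share bases with another gene. The order depends on the length used: the deposited lengths of Trpm1, Gnao1 and Rgs7 are 5711, 3462 and 1418 bases, whereas all their exons in GENCODE M21 cover 14746, 11053 and 6019 bases. By the latter, an alternative added after seeing the data, Gnao1 was at 44.3 CPM per kilobase, Prkca at 39.9, Trpm1 at 24.0 and Rgs7 at 5.21. Gnao1 stayed highest and Nyx lowest by both lengths, while Trpm1 went from second to sixth place. After vigabatrin the levels by deposited length were 145 for Gnao1, 58.2 for Trpm1, 43.1 for Prkca and 5.32 for Nyx.

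**Figure D5:**
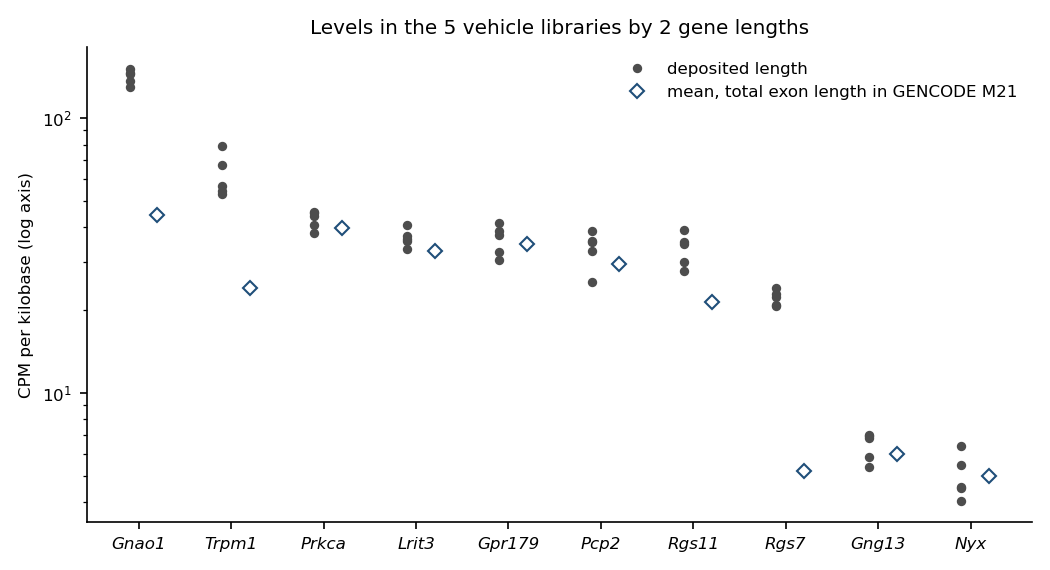
CPM per kilobase (vertical log axis) of the 10 genes in the 5 vehicle libraries by the deposited gene length (grey points, 1 per library) and the vehicle mean by the total exon length in GENCODE M21 (open diamonds). Gnao1 is highest by both lengths, and the diamonds lie well below the points for Gnao1, Trpm1 and Rgs7.

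Partners of the cascade were taken from a list of 10 genes: the receptor gene Grm6, the beta subunits Gnb3 and Gnb5, the membrane anchors Rgs9bp and Rgs7bp, Lrit1, Tpbg and the Gi alpha subunits Gnai1, Gnai2 and Gnai3. None passed the test (0 higher and 0 lower of 10), and their median log2 fold change was 0.03. Grm6 measured 232, 209, 227, 229 and 164 CPM in vehicle 1580, 1582, 2345, 832 and 835, and 194, 186, 222, 202 and 201 CPM in vigabatrin 2344, 2347, 2349, 2428 and 2429. The lowest value again came from vehicle 835, and the vigabatrin libraries lay within the vehicle range (log2 fold change -0.08, SE 0.09, edgeR adjusted p = 0.898). The Grm6 value was larger without some libraries: -0.16 without vehicle 835 (edgeR unadjusted p = 0.0123, adjusted p = 0.423), -0.18 without the lens-rich libraries (unadjusted p = 0.0183, adjusted p = 0.64) and -0.18 without the pigment-rich ones (unadjusted p = 0.0102, adjusted p = 0.511). Each of these fits leaves out vehicle 835, so they are not independent of each other. With title range as a term Grm6 measured -0.18.

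Gnb5 encodes Gβ5, the obligate partner that stabilises RGS7 and RGS11 and, with RGS9, serves photoreceptors as well. It measured 675, 661, 551, 697 and 755 CPM in vehicle 1580, 1582, 2345, 832 and 835, and 519, 529, 513, 547 and 507 CPM in vigabatrin 2344, 2347, 2349, 2428 and 2429. Every vigabatrin library lay below every vehicle library, though vehicle 2345 was only just above vigabatrin 2428. Its log2 fold change was -0.35 (SE 0.07, edgeR unadjusted p = 0.000381, adjusted p = 0.311), so it did not pass over all genes. DESeq2, which called 0.499% of all genes, called it (adjusted p = 0.000809). So did edgeR without vehicle 2345, where 0.221% of all genes were called (-0.42, adjusted p = 0.0165). That fit holds no vehicle library in the title range of the treated ones. Gnb5 was not called by limma-voom (-0.32, adjusted p = 0.108) or by edgeR without the lens-rich libraries (-0.28, adjusted p = 0.603). With title range as a term the value was -0.08, and treatment and title range cannot be told apart for this gene. Its partners Rgs7 and Rgs11, described above, did not separate the groups.

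None of the other 8 partners had an unadjusted p under 0.05. The log2 fold changes were -0.06 for Gnb3, the beta subunit of the ON bipolar Go, 0.03 for Rgs9bp and 0.13 for Rgs7bp, which tether R7 RGS proteins to membranes, and 0.03 for Lrit1. Those of Gnai1, Gnai2 and Gnai3 were 0.10, 0.02 and 0.02. Tpbg, a membrane protein of rod bipolar cells, had 0.17 with a standard error of 0.16 and an interval from 0.882-fold to 1.43-fold, and vehicle 835 held 6.66 CPM beside 11.8 to 13.2 CPM in the other 4 vehicle libraries.

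Close relatives of the members and 4 further groups of bipolar and synaptic genes had 0 genes called in each. Among 9 paralogs, 7 had a higher and 2 a lower mean, and Gng7, a gamma subunit, had the smallest p (log2 fold change 0.11, SE 0.05, unadjusted p = 0.027, edgeR adjusted p = 0.611). Among 7 genes of the photoreceptor side and matrix of the same synapse (Elfn1, Cacna1f, Cacna2d4, Cabp4, Egflam, Dag1 and Dmd) the estimates lay between -0.07 and 0.09, and Cacna1f, the presynaptic calcium channel, had the smallest p at -0.06 (SE 0.05, unadjusted p = 0.248). Cacna1f measured -0.10 without vehicle 835 (edgeR unadjusted p = 0.0291, adjusted p = 0.479), -0.14 without the lens-rich libraries (unadjusted p = 0.0103, adjusted p = 0.603) and -0.13 without the pigment-rich ones (unadjusted p = 0.0109, adjusted p = 0.513), and limma-voom gave -0.09 (unadjusted p = 0.0354). The fits with libraries left out all lack vehicle 835. With title range as a term Cacna1f measured -0.09.

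Of 8 bipolar transcription factors, Irx5 measured 0.23 (SE 0.08, unadjusted p = 0.0201) and Bhlhe23, a factor needed for rod bipolar cells, -0.25 (SE 0.11, unadjusted p = 0.0395), both with an edgeR adjusted p above 0.6. Bhlhe23 was 46.1 CPM in vehicle 835 and between 30.2 and 32.7 CPM in the other vehicle libraries, and it measured -0.08 without the pigment-rich libraries, -0.13 without vehicle 835 and -0.06 with title range as a term. Irx5 measured 0.36 without the lens-rich libraries. Of 8 rod and ON bipolar markers that are not members, 5 had a higher and 3 a lower mean, the estimates lay between -0.07 and 0.11, and Qpct had the smallest p (-0.07, SE 0.05, unadjusted p = 0.133). Of 8 OFF bipolar markers, 6 had a higher and 2 a lower mean. Tacr3, a tachykinin receptor gene, measured 0.12 (SE 0.04, unadjusted p = 0.0186, edgeR adjusted p = 0.6), with vehicle between 22.1 and 24.2 CPM and vigabatrin between 24.4 and 26.3 CPM. Bhlhe22 measured 0.28 (SE 0.12, unadjusted p = 0.0387), 0.15 without the pigment-rich libraries and 0.17 without vehicle 835. With title range as a term Tacr3 and Bhlhe22 each measured 0.05. The median log2 fold changes of the ON and OFF marker lists were 0.03 and 0.06, and their difference was not tested.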

How the data were processed

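Raw read counts per gene, as deposited, were used for 10 mouse retina libraries, 5 per group; the submitters' processing notes list HTSeq 0.6.1, mm10, DESeq2 and edgeR 3.16.5 as what the authors used. No source used here gives the aligner, the annotation release or the strand setting. The table held 1 count column that matches no sample used here. Deposited gene lengths in bases served only levels per kilobase.

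The groups were compared in R 4.3.3 by the quasi-likelihood test of edgeR 4.0.16 (with limma 3.58.1) without covariates. TMM factors scaled the libraries, and the default filter on low counts (filterByExpr) left 17435 genes. Calls were made at a Benjamini-Hochberg adjusted p under 0.05. CPM use TMM-scaled library sizes and log2 CPM a prior count of 2. Standard errors were derived from the F statistic and had a median of 0.0875. Correlations used 100000 permutations of the libraries, on both sides, or all of them for 7 libraries. No library pair within a group agreed to within sampling noise (lowest chi-square 8.46 per degree of freedom). The test was checked on simulated data that held no differences in pigment, lens or title range. The check therefore does not show how well the test finds changes in libraries that differ in these.

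The members and lists were chosen with earlier results of these data known. Named were all members and cascade partners, in other lists the gene of smallest p and those at an unadjusted p under 0.05, and the 3 genes most like Trpm1 and Prkca. The named genes Slc24a5, Sepp1, Ctnna1, Pcdh9, Socs4 and Zmynd19 come from that last rule, and Chtf18 and Pet100 were named for their overlap. Alternatives covered normalization, filters, DESeq2 1.42.0 and limma-voom, left-out libraries and terms for title range, pigment and lens markers. Positions were compared with GENCODE M21, and promoter windows are from RefSeq.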

Additional observations from a re-analysis of the deposited data

Results flagged for a closer look

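Of 40 groups of 5 libraries examined, for the 10 signalling genes and 10 cascade partners in each treatment, 2 contained a library that stood well apart. By chance about 1 in 20 would, which is 2 of 40. Vigabatrin 2344 was high for Trpm1 at 401 CPM, against 303 to 326 CPM in the other vigabatrin libraries, and it was the only vigabatrin library with a pigment marker sum over 500 CPM. Vehicle 835 was low for Tpbg at 6.66 CPM, against 11.8 to 13.2 CPM, and it held the most pigment markers of all libraries.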

How the results depend on the processing

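The count of called members stayed at 0 in all 22 alternatives, and so did the counts for the lists other than the cascade partners. Few genes of the whole table were called in these fits, so 0 was likely for any short list. DESeq2 called 87 genes, edgeR without vehicle 2345 called 39 and limma-voom called 3, and no other alternative called more than 1. The cascade partners had 1 called gene, Gnb5, with DESeq2's Wald test, and between 0 and 1 when single libraries were left out. Every estimate below that changed sign was uncalled in both fits, and 30 of 220 refitted estimates of members did so, none of them beyond 0.263 in size. Gng13 measured 0.0021 with total library sizes and 0.0056 with upper-quartile scaling, and Lrit1 -0.035 with limma-voom. Without the lens-rich libraries Nyx measured -0.054, Gpr179 -0.049 and Lrit1 -0.095. With title range as a term Trpm1 measured 0.144, Nyx -0.263, Gpr179 -0.134, Rgs7 0.011, Rgs11 0.051, Gng13 0.131, Prkca -0.084, Rgs9bp -0.0196, Lrit1 -0.182, Tpbg -0.058 and Gnai1 -0.063. With the pigment level as a term Prkca measured -0.0021 and Lrit1 -0.014. Without the 3 pigment-rich libraries Trpm1 measured 0.014, Nyx -0.0595, Gpr179 -0.0605, Gnao1 -0.0107, Prkca -0.0093 and Lrit1 -0.105. With single libraries left out, the estimates ran from -0.169 to 0.0101 for Trpm1, -0.069 to 0.028 for Gng13, -0.031 to 0.036 for Prkca, -0.058 to 0.018 for Lrit3, -0.069 to 0.092 for Lrit1, -0.0084 to 0.0603 for Gnai2 and -0.029 to 0.087 for Gnai3. Of these omissions only that of vehicle 835 turned the sign of Trpm1. The causes of the sign changes were not tested. The members' median log2 fold change stayed between -0.058 and 0.009. No paired analysis was possible because the groups share no replicate numbers. Gng13 had 152 to 257 counts per library and the other members at least 989, and the SE of Gng13, 0.0966, lay below those of Trpm1, Pcp2 and Nyx.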

Other observations

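The vehicle libraries were more spread out than the vigabatrin libraries for 9 of the 10 signalling genes, Rgs7 being the exception. The coefficient of variation over 5 libraries was 18.7% in vehicle and 3.59% after vigabatrin for Nyx, 12.8% and 3.12% for Gpr179, 13.6% and 5.37% for Rgs11, and 11.9% and 4.93% for Gng13. The same direction was found for 71.6% of all genes tested, with median coefficients of 10.7% and 7.19%, beside 12.3% and 5.18% for the members. The vehicle libraries also span the wider range of title numbers and include vehicle 835, the library richest in pigment markers. The difference in spread was not tested.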
